A study of Mus musculus with 2 samples.

Results

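The loci of 10 genes that encode POU domain transcription factors were examined in hindbrain chromatin of mouse embryos. The genes are Pou2f1, Pou3f1, Pou3f2, Pou3f3, Pou3f4, Pou4f1, Pou4f2, Pou4f3, Pou6f1 and Pou5f1, which serves as a pluripotency contrast, and they are 10 of 21938 protein-coding genes in the annotation used. They were listed by name, and a peak belonged to them when its midpoint lay at most 1 kb from a transcription start site (TSS) of the gene (promoter) or within 50 kb of one and over 1 kb from every TSS of any gene (distal). That rule took 228 of 263679 peaks in replicate 1 and 167 of 148804 peaks in replicate 2. Chromatin was assayed by DNase-seq, in which the nuclease DNase I cuts DNA where it is not protected by nucleosomes, so that clusters of cuts mark accessible promoters and regulatory elements. The tissue was whole hindbrain of healthy B6NCrl embryos at embryonic day 14.5, with males and females pooled, and no allele or treatment is named in the labels. There is 1 group with 2 biological replicates, whose labels name the same donor record, and no other tissue or stage, so the comparison of the replicates is the one the design implies. RNA was not measured, so the values below are accessibility and not expression.

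POU factors bind DNA through a POU-specific domain and a POU homeodomain joined by a flexible linker, and their classic target is the octamer element. In the nervous system the class III genes (Pou3f1 to Pou3f4) are known in neural progenitors and migrating neurons, and the class IV genes (Pou4f1 to Pou4f3) in sensory neurons, retinal ganglion cells and hair cells. Pou2f1 is expressed in most tissues, Pou6f1 in brain, and Pou5f1 in the early embryo and germ line, where it maintains pluripotency.

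Each deposited peak is 150 bp wide and carries a score of up to 150 in replicate 1 and up to 145 in replicate 2. The unit of the score is not stated, so scores were compared as percentiles among all peaks of the same library. The median score was 47 in replicate 1 and 30 in replicate 2. Depth is unknown because the files hold no read counts. Replicate 2 had fewer distal peaks than replicate 1, with 109016 against 217771, a ratio of 0.501. The hindbrain label was checked against markers: a promoter peak present in both libraries and overlapping between them (shared) was found at 8 of 8 hindbrain genes (Hox genes, Atoh1 and others), 5 of 5 neuronal genes and 4 of 4 progenitor genes. It was found at 0 of 4 microglial and blood genes, 0 of 3 erythroid genes, 1 of 4 endothelial genes and 1 of 4 retinal genes. It was also found at 5 of 8 matched genes of cranial sensory ganglia and inner ear and at 3 of 4 forebrain genes. Over all protein-coding genes the share was 64.6%. The lists were not matched for CpG content. The ratio of observed to expected CpG around the start site was 0.329 to 1.002 over the hindbrain genes. Over the microglial, blood and erythroid genes it was 0.078 to 0.342. The part of CpG content in these counts was not tested.

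The sequences that carry the main contrasts are shown first, 5′ to 3′ on the plus strand of mm10. The strongest promoter peaks of Pou3f2 (chr4:22488476-22488625) and Pou3f3 (chr1:42695616-42695765) stand for the open promoters. The 250 bases before the Pou5f1 start site (chr17:35505782-35506031, from the RefSeq promoter table built on GRCm38.p6) stand for the promoter without a peak. Capitals mark the GC box GGGCGG on either strand, the element bound by Sp family factors.
Pou3f2 promoter peak: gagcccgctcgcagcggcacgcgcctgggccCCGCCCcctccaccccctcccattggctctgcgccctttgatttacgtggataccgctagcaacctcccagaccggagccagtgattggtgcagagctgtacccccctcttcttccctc
Pou3f3 promoter peak: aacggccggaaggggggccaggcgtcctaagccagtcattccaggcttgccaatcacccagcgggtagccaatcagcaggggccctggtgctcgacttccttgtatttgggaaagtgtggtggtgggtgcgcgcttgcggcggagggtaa
Pou5f1 upstream region, no peak: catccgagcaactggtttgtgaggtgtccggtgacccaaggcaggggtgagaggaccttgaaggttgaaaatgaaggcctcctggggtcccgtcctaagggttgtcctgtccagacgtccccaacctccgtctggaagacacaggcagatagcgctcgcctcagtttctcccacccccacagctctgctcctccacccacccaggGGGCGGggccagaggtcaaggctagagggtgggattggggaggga
The GC box was matched in the Pou3f2 peak and in the Pou5f1 region and was not matched in the Pou3f3 peak. The stretches differ in length, 150 bp for the peaks and 250 bp for the Pou5f1 region. In the 250 bases before the start site the GC box was matched at Pou3f2, Pou3f3 and Pou5f1 alike. These letters therefore did not separate the open promoters from the one without a peak. In the RefSeq table, which held 11 promoters of 8 of the genes, 7 of the 11 held a GC box, beside 35.7% of 32851 mouse promoters.

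The next sequences are accessible elements that hold letters read by POU, homeodomain or NRF1 proteins. The Pou2f1 element (chr1:165935116-165935265) lies in an intron, 243 bp upstream of an internal start site of the gene, and the first Pou3f2 element (chr4:22494076-22494225) lies in intergenic sequence 5785 bp upstream. Capitals mark the octamer ATGCAAAT in both.
Pou2f1 internal promoter peak: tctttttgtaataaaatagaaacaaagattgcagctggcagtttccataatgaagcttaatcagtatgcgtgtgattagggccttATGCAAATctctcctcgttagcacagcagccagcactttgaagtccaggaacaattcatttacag
Pou3f2 upstream peak: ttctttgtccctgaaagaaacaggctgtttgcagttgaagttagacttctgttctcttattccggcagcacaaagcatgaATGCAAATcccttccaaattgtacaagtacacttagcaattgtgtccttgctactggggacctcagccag
The strongest distal peak of Pou3f1 (chr4:124672436-124672585) lies in intergenic sequence 15704 bp downstream of the start site, and capitals mark the homeodomain core TAATTA.
Pou3f1 downstream peak: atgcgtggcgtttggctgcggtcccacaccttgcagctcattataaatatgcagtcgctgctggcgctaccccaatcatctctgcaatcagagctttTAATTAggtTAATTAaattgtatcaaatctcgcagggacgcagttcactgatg
The strongest distal peak of Pou4f1 (chr14:104460416-104460565) lies 7508 bp downstream of the start site, in intergenic sequence, and capitals mark the consensus of NRF1, a factor of CpG-rich promoters.
Pou4f1 downstream peak: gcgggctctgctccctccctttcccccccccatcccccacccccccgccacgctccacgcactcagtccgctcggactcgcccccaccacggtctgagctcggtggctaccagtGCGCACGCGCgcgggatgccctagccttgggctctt

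Promoter accessibility was shared by the libraries at 9 of the 10 POU genes, all but Pou5f1. The share over all protein-coding genes was 64.6%. Within single libraries, 9 of 10 genes had a promoter peak in replicate 1, beside 69.9% of all genes, and 9 of 10 in replicate 2, beside 65.7%. A hotspot, the wider region of enriched cutting that the authors deposited separately, overlapped the promoter window in both libraries at 9 of 10 genes, beside 65.5% of all genes. CpG content around the start sites went with this share. In 10 classes of genes by the ratio of observed to expected CpG around the start site, the 9 genes with a peak fell into classes in which 92.2% to 98.5% of all genes had a shared promoter peak. Pou5f1, with a ratio of 0.332, fell into a class in which 45.7% did. The members' median ratio was 0.703, and that of all genes 0.571.

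Among the class III genes, promoter scores were near the top of each library. Pou3f3 (chr1:42695768-42703176, plus strand), known in cortical and kidney development, had a best promoter peak of score 143 in replicate 1 and 114 in replicate 2. Pou3f2 (chr4:22482780-22488366, minus strand), known in neurogenesis and the hypothalamus, had 141 in replicate 1 and 117 in replicate 2. Pou3f1 (chr4:124656807-124660655, plus strand), known in Schwann cell myelination, had 138 and 101 at 704 bp inside the gene, in the untranslated part of the exon and near the start of the antisense transcript Gm2164. Pou3f4 (chrX:110814280-110817207, plus strand), known in inner ear development, had 131 in replicate 1 and 84 in replicate 2. These best peaks lay at percentile 92.4 or above in both libraries for all 4 genes.

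The class IV genes were spread more widely. Pou4f1 (chr14:104461676-104467999, minus strand), a factor of sensory neurons that is also known in some brainstem nuclei, had a best promoter peak of 127 in replicate 1 and 86 in replicate 2. Pou4f2 (chr8:78433010-78436645, minus strand), which is required for retinal ganglion cells, had 70 in replicate 1 and 36 in replicate 2 at the shared peak with the highest mean percentile (75.2 in replicate 1 and 62.0 in replicate 2), and 77 and 33 at another shared peak 174 bp inside the gene. Pou4f3, which is required for auditory hair cells, had a shared peak of 54 in replicate 1 and 36 in replicate 2. Pou4f2 and Pou4f3 had the lowest scores of the 9 genes in both libraries, below the best shared peak of each of the other 7. In whole tissue a weak peak can come from a few cells with open chromatin or from many cells with a little, and these cannot be told apart. At Pou4f2 the hotspots of replicate 2 in the promoter window were 4 fragments of 63, 52, 233 and 101 bp, with a −log10 q of at most 2.22. In replicate 1 the same window held a hotspot of 633 bp at a −log10 q of 100. The deposited values run up to 6 or equal 100, so 100 was read as a cap, which the files do not state.

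Pou2f1 (chr1:165865154-166002678, minus strand), which has 7 distinct start sites in the annotation, had 5 shared promoter peaks, the best of 140 in replicate 1 and 117 in replicate 2. That peak lies between Pou2f1 and the divergent transcript Gm26665 and counts for both. A separate pair of peaks marked an internal start site, and the octamer element shown above is the stronger, with scores of 129 in replicate 1 and 63 in replicate 2. Pou6f1 (chr15:100575318-100599984, minus strand) had 4 shared promoter peaks, the best of 115 in replicate 1 and 85 in replicate 2, upstream of the gene and next to the start of the transcript Gm49492.

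**Figure D1:**
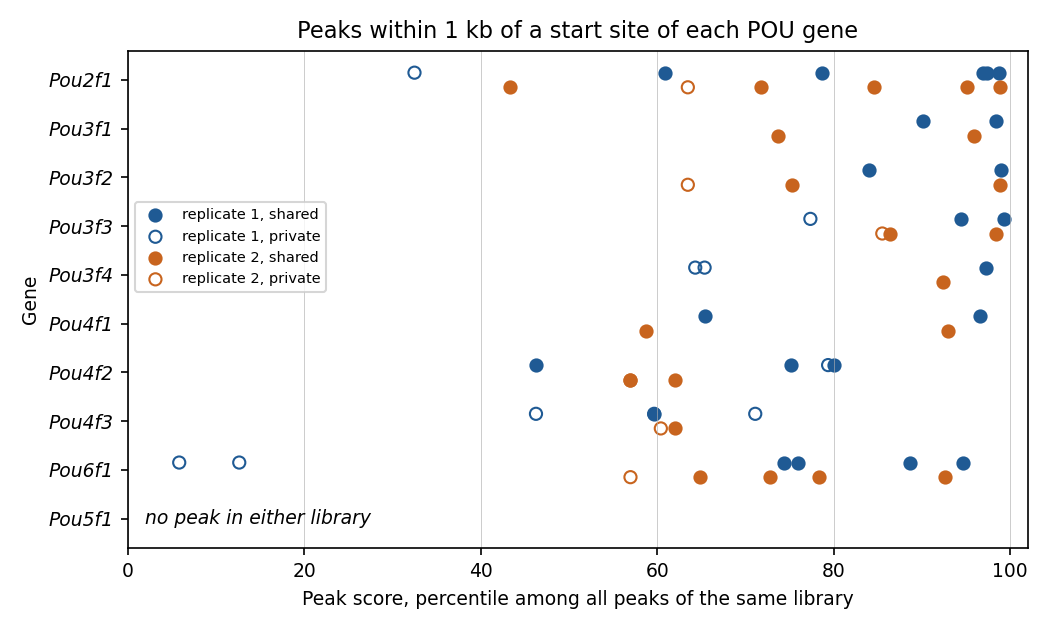
Peaks within 1 kb of a start site of each gene (rows), with the score as a percentile among all peaks of the same library on the horizontal axis; filled points overlap a peak of the other library and open points do not. Pou5f1 has no point, and the shared peaks of Pou4f2 and Pou4f3 lie left of the best peaks of the other 7 genes, which lie at percentile 92.4 or above in both libraries.

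Pou5f1 (chr17:35506018-35510772, plus strand) had no promoter peak and no promoter hotspot in either library. The region around it was not bare. Distal peaks numbered 14 in replicate 1, of which 10 were shared, and 10 in replicate 2. Only 2 of the 10 were nearer to the Pou5f1 start site than to that of another protein-coding gene, and 5 other protein-coding genes have a start site in the window. Among them Tcf19 and Cchcr1, whose start sites lie 10767 and 11082 bp from that of Pou5f1, shared a promoter peak of 141 in replicate 1 and 115 in replicate 2. The shared peaks nearest the Pou5f1 start site were at 3453 bp, in a coding exon, with 72 in replicate 1 and 23 in replicate 2, and at 7413 bp, with 42 and 31. Of the 14 other genes of the pluripotency list, 7 had a shared promoter peak, beside 64.6% of all genes. Nanog, Zfp42, Dppa3 and Dppa4 had no promoter peak in either library, and Tdgf1, Utf1 and Fgf4 had promoter peaks in replicate 1 only. The 7 with a shared peak included Sox2, Klf4, Lin28a and Sall4, of which Sox2 is also a gene of neural progenitors.

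A further 4 POU genes behaved in a mixed way. A shared promoter peak was found at 2 of the 4, namely Pou2f2 and Pou2f3, beside 64.6% of all genes. Pou1f1, the pituitary factor, had 1 promoter peak in replicate 1 and none in replicate 2, and Pou5f2 had none in either library. Genes with described POU-bound enhancers in neural cells had a shared promoter peak at 6 of 6 (Nes, Fabp7, Dll1, Sox2, Isl1 and Crh), beside the same 64.6%. Their median number of distal shared peaks was 6.5, beside 3 for all genes, with 17 at Sox2 and 0 at Isl1. The median was also 6.5 over the pluripotency list, and it was 3 over the 4 further POU genes. Over the marker lists it ran from 3.5 (retinal) to 15.5 (neural progenitors).

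Around the POU genes, distal peaks were numerous, but unevenly so. The median count of distal shared peaks was 9 over the 10 genes and 3 over all protein-coding genes. It was also 9 over the hindbrain and over the neuronal marker genes, and 3.5 to 15.5 over all marker lists. A count above that of the median gene was reached by 8 of the 10, beside 48.1% of all genes. The number of distal peaks was 26 shared at Pou3f2, of 34 in replicate 1 and 36 in replicate 2. It was 17 shared at Pou3f3, of 36 in replicate 1 and 43 in replicate 2. These 2 genes held 44.3% of the 97 distal shared peaks of the set. As many or more shared peaks as at Pou3f2 were found at 0.146% of protein-coding genes, and as many or more as at Pou3f3 at 1.1%.

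The remaining class III genes had fewer. At Pou3f1 there were 24 in replicate 1 and 9 in replicate 2, and 9 were shared. Of these 9, 4 were nearest to the Pou3f1 start site among protein-coding genes, since Utp11, Fhl3 and 3100002H09Rik also start in the window. Pou3f4 had 15 in replicate 1 and 1 in replicate 2. In the class IV group Pou4f1 had 24 and 10, with 10 shared, Pou4f2 had 18 and 11, with 7 shared, and Pou4f3 had 7 and 3, with 2 shared. Pou2f1 had 17 and 10, with 9 shared, and Pou6f1 had 7 in each library, with 5 shared. Pou3f4 and Pou4f3 were the 2 genes below the median gene.

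**Figure D2:**
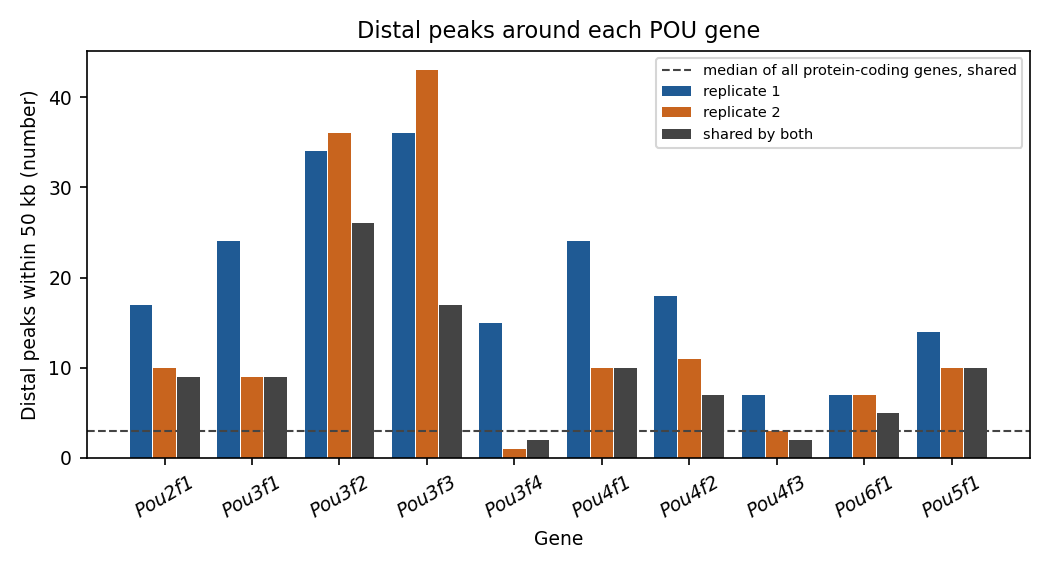
Number of distal peaks within 50 kb of a start site of each gene in replicate 1, in replicate 2 and shared (positions of replicate 1); the dashed line is the median of all protein-coding genes for shared peaks, 3. Pou3f2 and Pou3f3 stand above the other genes in both libraries, and Pou3f4 has 15 distal peaks in replicate 1 and 1 in replicate 2.

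The positions differed between genes. All 26 distal shared peaks of Pou3f2 lay between 10165 bp upstream and 11195 bp downstream of the start site, and none lay in the rest of the window. At 1 to 5 kb from the start site Pou3f2 held 10 shared peaks and at 5 to 10 kb 12, where the mean over all protein-coding genes was 0.515 and 0.399. Pou2f1 had 7 of its 9 at 20 to 50 kb, 4 of them in a cluster 45213 to 46613 bp upstream. That is the widest distance class, and over all protein-coding genes it also held the most, with a mean of 2.425. Pou3f1 held its strongest distal peaks downstream, with scores of 125 in replicate 1 and 74 in replicate 2 at 15704 bp and of 101 and 85 at 18384 bp. The site at 18384 bp holds a CTCF match. Of the 97 distal shared peaks of the set, 47 were intergenic, 31 intronic, 10 in untranslated exons, 6 in coding exons and 3 in non-coding exons. The same shares over all distal shared peaks were not computed, so these counts only describe the set.

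**Figure D3:**
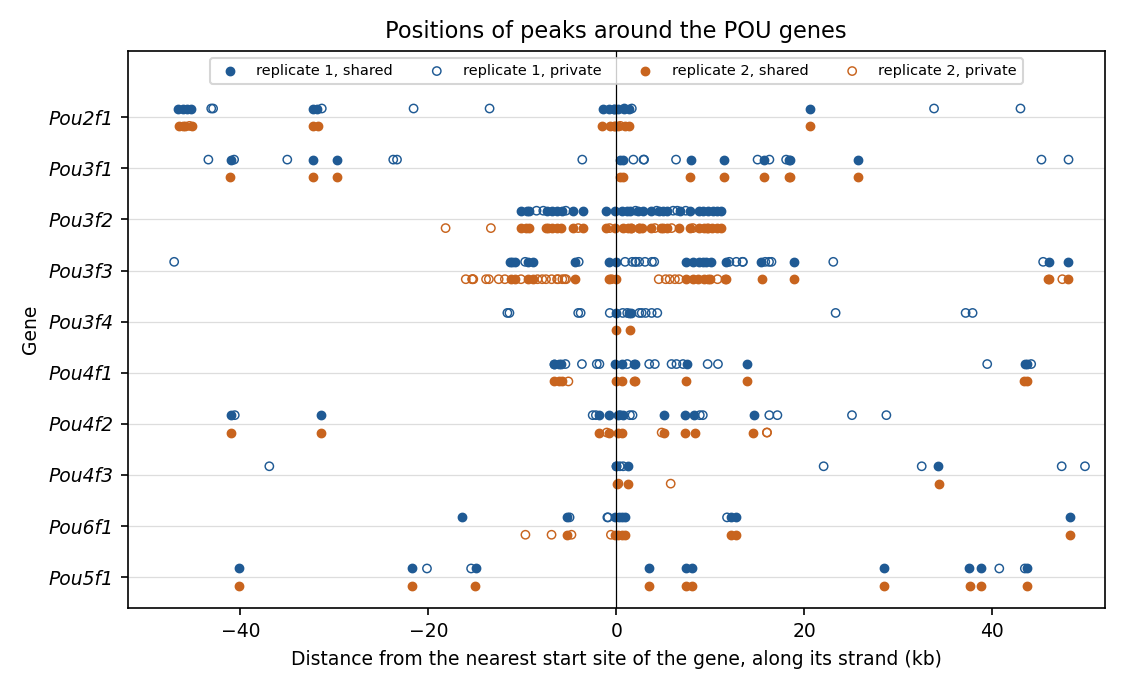
Positions of the promoter and distal peaks within 50 kb of each gene (those within 1 kb of another gene's TSS are left out), as distance from the nearest start site of the gene along its strand in kb, with replicate 1 above replicate 2 in each row; filled points are shared and open points private. Pou3f2 carries a compact array between 10165 bp upstream and 11195 bp downstream, while the shared peaks of Pou5f1 are spread from 40147 bp upstream to 43733 bp downstream and those of Pou2f1 from 46613 bp upstream to 20629 bp downstream.

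At Pou2f1 the strongest distal shared peak by mean percentile (chr1:165914196-165914345) lay in an intron, 20629 bp from the nearest start site of the gene, with 99 in replicate 1 and 56 in replicate 2. That of Pou6f1 lay 5247 bp upstream, with 73 and 47. Among the class IV genes it was 79 in replicate 1 and 54 in replicate 2 at Pou4f1 (the element shown above), 73 and 51 at Pou4f2, 5074 bp downstream, and 100 and 38 at Pou4f3, 34296 bp downstream. Pou3f4 had 56 and 42 at 1411 bp, and Pou5f1 had 87 and 77 at 28533 bp, in an untranslated exon of Psors1c2.

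Hotspots around the genes differed in length. The longest hotspot of Pou2f1, at its promoter, was 3091 bp in replicate 1 and 1581 bp in replicate 2. Around Pou6f1 it was 2231 bp in replicate 1, near the start of Dazap2, and 2094 bp in replicate 2, at the Pou6f1 promoter. It was 1674 and 1028 bp at Pou4f1, 1431 and 814 bp at Pou3f1, 1344 and 552 bp at Pou4f3, and 633 and 319 bp at Pou4f2, the lowest of the set in both libraries. Pou3f4 had 1923 bp in replicate 1 and 557 bp in replicate 2. In the Pou5f1 window the longest, 1164 and 663 bp, lay at the start sites of Tcf19 and Cchcr1. At Pou3f3 the longest of replicate 1 was 2242 bp, at the promoter.

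At Pou3f2 both libraries held the array. The strongest distal peaks by mean percentile were at 11195 bp downstream (chr4:22477096-22477245), with 105 in replicate 1 and 69 in replicate 2, and at 6785 bp upstream (chr4:22495076-22495225), with 116 and 61. The longest hotspot was 2552 bp in replicate 1, upstream of the gene, and 1970 bp in replicate 2, over its downstream end. The upstream side overlaps the lincRNA Gm30731, whose promoter window held 4 shared peaks with a best score of 107 in replicate 1 and 64 in replicate 2. Hotspots covered 19.7% of the 100 kb window in replicate 1 and 15.4% in replicate 2, against 17.3% and 16.3% at Pou3f3.

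At Pou3f3 the libraries matched at some elements and parted at others. Shared elements lay upstream, in introns of the lincRNA Pantr1, at 8877 bp (chr1:42686816-42686965) with 107 in replicate 1 and 73 in replicate 2, and downstream at 8783 bp (chr1:42704476-42704625) with 110 and 70. The stretches given next were delimited after the positions were seen. Between 4.5 and 17 kb upstream, replicate 2 had 22 peaks, 18 of them private with a median score of 19.5, and replicate 1 had 6, of which 1 was private. Over the gene itself, from 1 to 4.2 kb downstream of the start site, replicate 1 had 7 peaks, all private, with scores of 63 to 93, and replicate 2 had none. Of these 7, 4 lay in the coding exon and 3 in the untranslated exon. From 4.2 to 7 kb, over the untranslated end, replicate 2 had 5 peaks, all private, with scores of 27 to 33, inside a private hotspot of 2646 bp, and replicate 1 had none. Over all distal peaks of replicate 1 with a score of 63 or more, 85.4% of 54920 were shared and 14.6% were not. That limit is the lowest score of the 7 peaks over the gene. Their place among the 14.6% follows from how the stretch was delimited.

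The replicate overlap of distal peaks shows the same unevenness. Of the members' distal peaks in replicate 1, 97 of 196 overlapped a peak of replicate 2, 49.5% (95% Wilson interval 42.6% to 56.4%), beside 37.2% of all distal peaks of that library. In replicate 2, 99 of 140 overlapped a peak of replicate 1, 70.7% (62.7% to 77.6%), beside 76.5%. These intervals cover counting error only, and neighbouring peaks are not independent. At Pou3f3 the share was 41.9% of 43 in replicate 2 (28.4% to 56.7%) and 47.2% of 36 in replicate 1. At Pou3f2 it was 83.3% of 36 in replicate 2 and 76.5% of 34 in replicate 1. These shares rest on an overlap of 1 bp or more and were not adjusted for how densely peaks lie. The members' distal peaks also scored higher in replicate 1, with a median of 54.5 beside 44 for all distal peaks. At 50% overlap the 26 shared peaks of Pou3f2 became 17. At Pou3f1 and Pou5f1 every distal peak of replicate 2 was shared, 9 of 9 and 10 of 10.

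More distal peaks in replicate 2 than in replicate 1 were counted at 2 of the 10 genes, Pou3f2 and Pou3f3, beside 8.28% of all protein-coding genes. Summed over the set, the ratio of replicate 2 to replicate 1 was 0.714, and without these 2 genes 0.484, beside 0.501 for all distal peaks. Forebrain markers, taken as a sum, moved the same way. Summed over the 4 forebrain genes, replicate 2 had 49 distal peaks and replicate 1 had 44, with Emx2 at 23 in replicate 2 and 10 in replicate 1, and Emx1 at 17 and 13. Six3, with 4 in replicate 2 and 13 in replicate 1, and Lhx2, with 5 and 8, did not. Summed over the 8 hindbrain genes, replicate 2 had 130 and replicate 1 had 209. The 3 erythroid genes had 29 in replicate 2 and 24 in replicate 1, and in the other 6 marker lists the sum was lower in replicate 2. The part of these markers in the Pou3f2 and Pou3f3 counts was not tested.

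Pou3f4 went the other way. Its promoter peak was present in both libraries, with 131 in replicate 1 and 84 in replicate 2, but of 15 distal peaks in replicate 1, 2 overlapped a peak of replicate 2, and both overlapped the same one. Among 3904 protein-coding genes with 15 or more distal peaks in replicate 1, 7 (0.179%) had 1 or none in replicate 2. Both limits equal the counts of Pou3f4 itself, which is 1 of the 7. The share therefore describes its rank and is not a test. Hotspots covered 8288 bp of the window in 16 regions in replicate 1, 9 of them at the cap, and 769 bp in 2 regions in replicate 2. The neighbouring lincRNA Gm44593, which starts 1956 bp upstream, had 5 promoter peaks in replicate 1 and none in replicate 2. Over all distal peaks the ratio of replicate 2 to replicate 1 was 0.472 on the X chromosome and 0.501 on the autosomes. The part of the chromosome in the Pou3f4 counts was not tested. Other neighbours with promoter peaks in replicate 1 and none in replicate 2 were the lincRNA D130079A08Rik near Pou4f1 with 4, H2-Q10 near Pou5f1 with 3, Smagp near Pou6f1 with 3 and the pseudogene Gm7626 near Pou2f1 with 1.

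**Figure D4:**
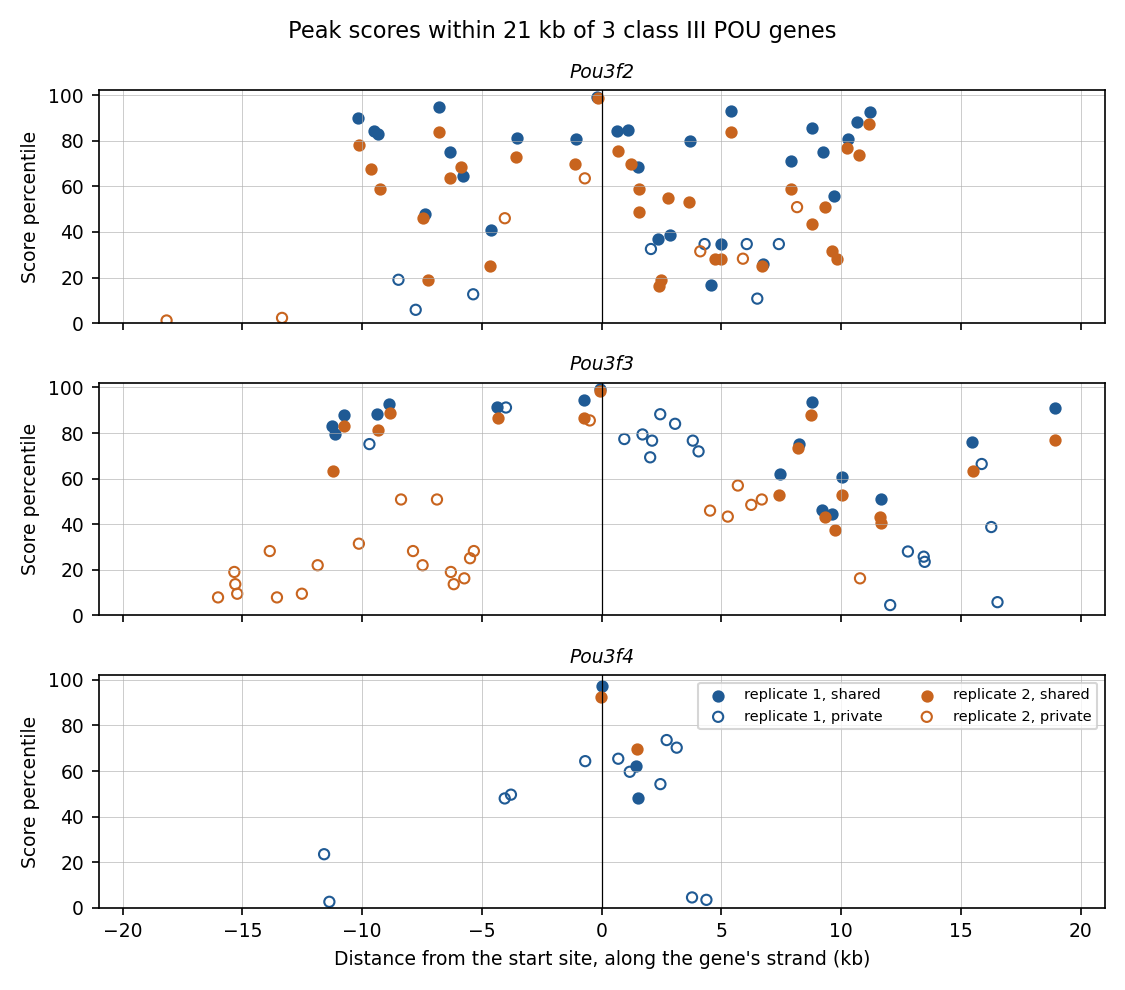
Score percentile of the promoter and distal peaks within 21 kb of the start sites of Pou3f2, Pou3f3 and Pou3f4, against distance along the gene's strand in kb; filled points are shared and open points private. At Pou3f3 replicate 1 alone has 7 peaks from 1 to 4.2 kb, replicate 2 alone has 5 from 4.2 to 7 kb, and at Pou3f4 1 distal point belongs to replicate 2 and the others to replicate 1.

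Scores of shared sites also differed by rank. At Pou4f2 a shared peak 40986 bp upstream (chr8:78477556-78477705) was at percentile 64.3 in replicate 1 and 16.3 in replicate 2, a gap of 48.0 points, the largest among the distal shared peaks of the set at replicate 1 positions. At Pou5f1 the peak 3453 bp downstream had a gap of 45.2 points, and at Pou3f2 that 8795 bp downstream a gap of 42.2, each higher in replicate 1. The largest distal gaps of the other 7 genes were 14.9 to 40.2 points in size, higher in replicate 1 at 6 of them and higher in replicate 2 at Pou3f4 (-21.8, replicate 1 minus replicate 2). Over all distal shared peaks the median score was 68 in replicate 1, at percentile 73.6. It was 31 in replicate 2, at percentile 53.0. A higher rank in replicate 1 is therefore not particular to these genes. Gaps peak by peak were not computed over all genes. At the promoters the largest gap was 23.0 points, at Pou4f2. At Pou4f3 the promoter gap, replicate 1 minus replicate 2, was -2.34 points.

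Letters read by POU proteins were matched in few of the distal elements around the POU genes, at shares above or below those of all distal shared peaks. The octamer ATGCAAAT was matched, on either strand, in 1 of the 97 distal shared peaks (1.03%), the Pou3f2 element shown above, beside 1.78% of 81031 distal shared peaks overall. The spaced POU consensus CATNNTAAT was matched in 3 (3.09%), beside 2.34%, at Pou3f1, Pou3f3 and Pou5f1. The form with a 3 bp spacer was matched in none, beside 2.63%, and in windows of 300 bp in 2 (2.06%), beside 5.12%. A further POU consensus, MORE, was matched in none, beside 0.0136%. The POU4-type consensus ATAATTAAT was matched in none, beside 0.322%, and in windows of 300 bp in 2 (2.06%), beside 0.668%. The homeodomain core TAATTA was matched in 8 (8.25%), beside 6.85%, with 2 copies in the Pou3f1 element shown above. It is part of the POU4-type consensus.

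Among other factors, CTCF, which marks insulators and loop anchors, was matched by its consensus in 7 of the 97 (7.22%), beside 11.6%, and 4 of those 7 lay in the Pou5f1 window. NRF1 was matched in 3 (3.09%, exact 95% interval 0.642% to 8.77%), beside 0.346%, with 2 of the 3 at Pou4f1, including the element shown above, and 1 at Pou3f2. NRF1 is 1 of 18 motifs counted, and no correction for their number was made. The interval takes peaks as independent, although 2 of the 3 lay around the same gene. REST, the repressor of neuronal genes, was matched in 1 (1.03%), at Pou4f3, beside 0.178%. NFI was matched in none, beside 0.255%. The E-box CAGCTG, a site of basic helix-loop-helix factors, was matched in 13 (13.4%), beside 16.6%, and 7 of these 13 lay in the Pou3f2 array. SOX factors, known partners of POU proteins, were matched by CCATTGT in 1 (1.03%), beside 2.48%, the Pou3f2 peak 6785 bp upstream. A match describes the sequence and not binding, and a missing match says only that these letters are not in the 150 bp.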

How the data were processed

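DNase-seq of embryonic mouse hindbrain was analysed from 2 biological replicates of 1 group. For each library the authors deposited 150 bp peaks with a score, whose unit is not stated, and hotspots with a −log10 q-value. Per the text deposited with each sample, both lists come from filtered alignments to mm10. The sources used here name no aligner, peak caller or threshold, and depth is unknown. Scores were ranked within a library. Peaks on unplaced contigs and the mitochondrial genome were left out (263932 and 149107 in the files, 263679 and 148804 used). Start sites came from the GENCODE M21 basic set and sequence from GRCm38.p6, the same assembly. Peaks that overlapped one from the other library by 1 bp or more were called shared and were counted at their replicate 1 positions. Motifs (18) were exact consensus matches on both strands, and sequences shown come from the genome or the RefSeq promoter table. Overlap shares have 95% Wilson intervals. With 2 libraries of 1 group no test between groups was made. The rule for named sites was, for each gene, its promoter and distal shared peaks of highest mean percentile, the longest hotspot of each library and the largest rank gap, some given as ranges. The genes and comparison lists were chosen with earlier results of these data known, and a few listed genes are not reported here. Counting functions were tested on simulated data. Python 3.11.15, numpy 2.4.6, pandas 2.3.3, scipy 1.17.1 and pysam 0.24.0 were used.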

Additional observations from a re-analysis of the deposited data

How the results depend on the processing

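The 9 promoter calls of the 10 POU genes kept their number under all 8 alternatives (windows of 500 and 2500 bp, 50% overlap, hotspots, peaks at or above the median score, the outermost start site, and each replicate left out), while the share of all genes ran over 61.5% to 69.9%. The 97 distal shared peaks became 147 within 100 kb and 61 among peaks at or above the median score, and with 1 library at a time 140 to 196. The members' median stayed above that of all genes under every alternative. Pou3f2 had the most peaks except in single libraries, where Pou3f3 had 43 and 36, and with hotspots, where Pou3f3 had 14 and Pou3f2 13. At 50% overlap Pou3f2 kept 17 of its 26 shared peaks and Pou3f3 kept 14 of its 17. The largest swing was at Pou3f4, with 2 shared peaks, 1 in replicate 2 and 15 in replicate 1. Counting overlapping peaks as 1, an alternative chosen after seeing the data, gave 92. At 50% overlap the members' replicate overlap fell to 39.8% in replicate 1 and 55.7% in replicate 2, beside 33.5% and 68% of all distal peaks. Among peaks at or above the median score it was 50.8% in replicate 1, beside 43.7%, and 88.1% in replicate 2, beside 93.4%. In 300 bp windows the octamer was matched in 2 peaks (3.09% of all distal shared peaks held it), CATNNTAAT in 6 (4.66%) and TAATTA in 13 (12.6%). No paired analysis was possible because there is 1 group. Without read counts, a missing peak cannot be told from too few reads, and 2 libraries give no estimate of the spread between litters.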

Other observations

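Several POU genes lie alone in long stretches without another protein-coding start site, and the elements in those stretches reach far beyond 50 kb. Pou3f3 lies in a stretch of 2046 kb between Tmem182 and Mrps9, with 103 distal shared peaks, and 16.5% of them lay within 50 kb of its start site. The strongest of those beyond 50 kb was 885 kb upstream (chr1:41810456-41810605), with a score of 122 in replicate 1 and 86 in replicate 2. Pou3f2 lies in 2139 kb between Fbxl4 and Mms22l, with 68 distal shared peaks, of which 38.2% lay within 50 kb. Its strongest far peak was 459 kb upstream (chr4:22946916-22947065), with 109 in replicate 1 and 54 in replicate 2. Pou4f1 lies in 678 kb between Ednrb and Rnf219, with 27 distal shared peaks, the strongest far one 429 kb downstream with 104 in replicate 1 and 80 in replicate 2.

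Pou3f4 was sparse at this scale too. Its stretch of 1914 kb between Gm6377 and Cylc1 held 46 distal peaks in replicate 1, 12 in replicate 2 and 9 shared, or 0.47 shared peaks per 100 kb. The density was 5.04 per 100 kb around Pou3f3, 3.18 around Pou3f2 and 2.97 over the genome. Pou3f4 lies on the X chromosome, which held 1607 distal shared peaks, where the autosomes held 79400. A density for the X chromosome alone was not computed, so the genome value is not a matched baseline for Pou3f4. Which gene any far peak acts on was not tested.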
